A study of Homo sapiens with 10 samples.

Results

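The subtelomeric megabases are the stretches of each autosome that lie just inside the repeats of the telomere. They were taken here as the 1-kb bins within 1 Mb of the last bin that the deposited tracks retain, and within 1 Mb of the first retained bin except on chromosomes 13, 14, 15, 21 and 22, whose short arms carry ribosomal DNA and satellite repeats. This gave 39 chromosome ends (17 of short arms and 22 of long arms) with 37181 bins, of 2820626 bins in all on hg19. The ends are named by chromosome and arm. The distance from an end is counted from the first or last retained bin, which is often not the true tip: on 1p the first retained bin starts at base 750001, whereas on 2p and 3p the bins start at base 1 of the assembly, so that they take in its unsequenced first stretch.

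The libraries are CUT&RUN libraries, in which a nuclease held by an antibody releases the DNA under its target, from 2 human lines. K562 is an erythroleukaemia line and HepG2 a hepatocellular carcinoma line, and both carry altered chromosome numbers. Gamma-H2AX, read with the monoclonal antibody JBW301, was profiled in K562 after 6 Gy from a 60Co source and 1 h of recovery (n = 2), in K562 after 6 Gy and 24 h (n = 2), and in HepG2 after 6 Gy and 1 h (n = 1). H3K27me3 was profiled in K562 after 6 Gy and 1 h (n = 1). The libraries titled H2AX came from untreated K562 (n = 2) and untreated HepG2 (n = 2). Their antibody field names histone H4, so they served as the chromatin background of each line. No gamma-H2AX library from unirradiated cells was analysed here, so each difference from H2AX sets a modified histone in irradiated cells against a general histone signal in untreated ones, and antibody and irradiation cannot be told apart. The labels do not state whether replicates were cultured separately. The tests therefore weigh differences only against how much these libraries vary, and part of that may be technical.

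Gamma-H2AX is the histone variant H2AX phosphorylated on its tail by the kinases ATM, ATR and DNA-PK, and it spreads over large domains around a DNA double-strand break. The shelterin complex keeps natural chromosome ends from being read as breaks, and telomeres that lose this cover gain gamma-H2AX. The sequence just inside the telomere is built of segmental duplications and, on many arms, passes within a short distance into GC-rich chromatin dense in genes. H3K27me3 is deposited by Polycomb repressive complex 2 and marks silenced genes.

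The level of a region is its mean depth divided by the mean depth of the same library over all bins without chromosome Y, so that 1 is the library's average. Mean depths were between 0.326 and 1.78 reads per base. Replicate 1 of K562 at 24 h stood apart: its track read 0 in 98.0% of the subtelomeric bins with a 1 h level above 1, against 0.651% in replicate 2, and in 9.48% of the other subtelomeric bins. It therefore cannot be read as an independent measurement, and the tests below leave it out.

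The promoters printed here show what kind of sequence lies at ends that stood at opposite sides of the comparisons below. They belong to the outermost protein-coding gene of the arm in the RefSeq order on GRCh38.p14: METRNL, which encodes a secreted factor, on 17q (highest at 1 h), FAM110C on 2p (among the lowest at 1 h), and CHL1, a neural cell adhesion molecule, on 3p (highest at 24 h). Each is the 250 bases before the gene's start, 5′ to 3′ on the gene's strand, with every CG dinucleotide in capitals. The deposited files use hg19, and no bin was placed on these GRCh38.p14 positions.
METRNL, chr17:83080896-83081145, plus strand: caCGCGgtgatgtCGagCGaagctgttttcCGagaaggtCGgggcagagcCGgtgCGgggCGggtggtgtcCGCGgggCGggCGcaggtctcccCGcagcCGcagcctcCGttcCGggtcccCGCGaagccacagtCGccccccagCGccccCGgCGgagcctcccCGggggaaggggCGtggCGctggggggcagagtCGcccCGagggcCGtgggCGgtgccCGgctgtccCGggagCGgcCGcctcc
FAM110C, chr2:46506-46755, minus strand: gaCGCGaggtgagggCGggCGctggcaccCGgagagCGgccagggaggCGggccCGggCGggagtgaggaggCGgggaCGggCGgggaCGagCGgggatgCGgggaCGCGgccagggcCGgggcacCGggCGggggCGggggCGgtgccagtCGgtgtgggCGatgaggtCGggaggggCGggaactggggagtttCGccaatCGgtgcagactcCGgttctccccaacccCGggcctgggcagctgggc
CHL1, chr3:197639-197888, plus strand: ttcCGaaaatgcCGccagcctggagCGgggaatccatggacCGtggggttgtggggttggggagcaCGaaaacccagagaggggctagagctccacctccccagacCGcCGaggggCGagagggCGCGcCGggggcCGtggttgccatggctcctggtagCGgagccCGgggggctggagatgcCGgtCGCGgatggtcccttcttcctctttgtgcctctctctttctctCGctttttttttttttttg
GC content was 78.4% for METRNL and for FAM110C, with 34 and 30 CG dinucleotides. CHL1 had 63.2% GC with 18 CG. Over all 27305 promoters in the table the median was 58% GC with 11 CG. The promoters of METRNL and FAM110C were thus alike in GC although their ends lay at opposite sides at 1 h.

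At 1 h after irradiation, the chromosome ends of K562 split into a larger group with more gamma-H2AX than H2AX and a smaller one with less. Of 39 ends tested, 21 were higher and 8 lower than H2AX at an adjusted p under 0.05, and 10 passed in neither direction. Over all 2785 segments of 1 Mb tested, 36% were higher and 32.2% lower. The median log2 difference was 0.25 over the ends and 0.04 over all segments. Replicate 2 lay farther from H2AX than replicate 1 at 32 ends, as the plot of the ends by library shows. Long arms had a median of 0.29 (22 ends) and short arms a median of -0.09 (17 ends). Without replicate 1 or replicate 2 of K562 H2AX, 12 or 11 ends were called higher, and 5 or 7 lower. When replicate 1 at 24 h was put back into the shared fit, none was called in either direction. Without replicate 2 at 1 h the median over the ends was 0.14. With each segment summarised by the median of its bins it turned to -0.19, with 7 ends higher and 19 lower.

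**Figure D1:**
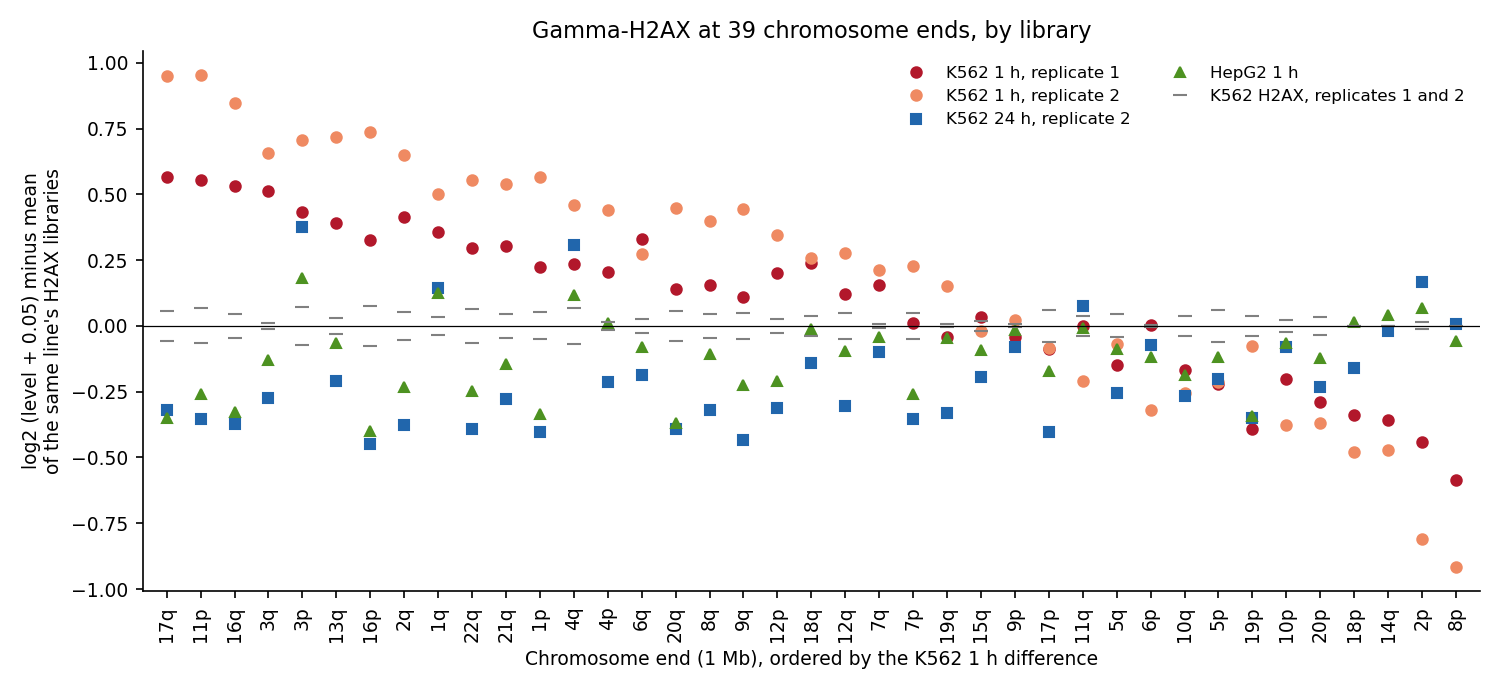
Difference of each gamma-H2AX library from the mean of the same line's H2AX libraries, on log2(level + 0.05), for the 39 ends in order of the K562 1 h difference. Circles are the K562 1 h replicates, squares K562 24 h replicate 2, triangles HepG2 1 h and grey bars the K562 H2AX replicates. The 1 h circles run from 17q at the left, where both lie above the H2AX bars, to 8p at the right, where both lie below them, while the squares and triangles lie mostly below 0.

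The end of 17q (chr17:80152001-81152000) had levels of 1.67 and 2.19 at 1 h, 1.16 and 1.06 in K562 H2AX and 0.879 at 24 h in replicate 2. On 11p (chr11:196001-1196000) the levels were 1.57 and 2.08 at 1 h, 1.10 and 1.00 in H2AX and 0.813 at 24 h. On 16q (chr16:89156001-90156000) they were 1.63 and 2.04 at 1 h, 1.15 and 1.08 in H2AX and 0.849 at 24 h. In each of these gene-rich ends both 1 h libraries lay above both H2AX libraries and the 24 h library lay below them. The log2 differences between 1 h and H2AX were 0.76 ± 0.11 (SE, adjusted p = 0.00107) for 17q, 0.75 ± 0.12 (adjusted p = 0.00147) for 11p and 0.69 ± 0.10 (adjusted p = 0.00101) for 16q. The outermost coding genes of 16q in RefSeq include MC1R, the melanocortin receptor of pigment cells, TUBB3, a tubulin of neurons, and FANCA, a component of the Fanconi anaemia core complex. Those of 11p include the IFITM genes of antiviral defence and SIRT3, a mitochondrial deacetylase.

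Next came both ends of chromosome 3. On 3q (chr3:196798001-197798000) the levels were 1.97 and 2.18 at 1 h, 1.38 and 1.35 in H2AX and 1.12 at 24 h, a log2 difference of 0.58 ± 0.06 (adjusted p = 0.000466). On 3p (chr3:1-1000000) they were 1.12 and 1.37 at 1 h, 0.775 and 0.863 in H2AX and 1.08 at 24 h, a difference of 0.57 ± 0.10 (adjusted p = 0.00232). Groups did not overlap at either end, but at 3p the 24 h library stayed above H2AX. 3p is the gene-poor member of this set: its outermost coding genes, CHL1, CNTN6 and CNTN4, are long genes of neuronal adhesion molecules.

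At the other side stood 8p and 2p. The first megabase retained on 8p had levels of 0.548 and 0.425 at 1 h, 0.847 and 0.845 in H2AX and 0.851 at 24 h, a log2 difference of -0.75 ± 0.11 (adjusted p = 0.000808). On 2p (chr2:1-1000000) the levels were 0.529 and 0.398 at 1 h, 0.728 and 0.743 in H2AX and 0.832 at 24 h, a difference of -0.62 ± 0.11 (adjusted p = 0.00223). Here the 1 h libraries were the low ones, and 24 h did not lie below H2AX.

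Smaller deficits were found on 14q, 18p and 20p. The levels on 14q (chr14:106349541-107349540) were 0.427 and 0.391 at 1 h, 0.560 and 0.561 in H2AX and 0.553 at 24 h, a log2 difference of -0.41 ± 0.08 (adjusted p = 0.00251). This stretch holds the immunoglobulin heavy chain locus, whose segments are rearranged in B cells. On 18p (chr18:127001-1127000) they were 1.59 and 1.44 at 1 h, 2.03 and 2.03 in H2AX and 1.81 at 24 h, a difference of -0.41 ± 0.06 (adjusted p = 0.000987). For 20p (chr20:1-1000000), whose outermost genes are beta-defensins, they were 0.918 and 0.865 at 1 h, 1.16 and 1.10 in H2AX and 0.958 at 24 h, a difference of -0.33 ± 0.06 (adjusted p = 0.00197). The 18p end shows that a high level is not the same as a high difference, since its 1 h levels exceeded the library mean while remaining below H2AX. With ends of 0.5 Mb, 14q was at 0.034 in place of -0.41, so its deficit lay in the inner part of the megabase.

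A whole megabase hid opposite changes within it. In windows of 100 kb counted from each end, 364 of the 376 windows with at least 50% of their bins were tested, of which 151 were higher and 130 lower than H2AX. Over all 27593 windows of that size 33.4% were higher and 37.8% lower. With replicate 1 at 24 h in the fit, 7 windows of the ends were higher and 57 lower. Windows called in both directions were present in 32 of 39 ends, only higher ones in 5 (3p, 4q, 8q, 11p and 16q) and only lower ones in 2 (2p and 19p). The same count was not made for megabases elsewhere, so mixed directions are not read as a trait of the ends. The span between the highest and the lowest window of an end had a median of 1.88 on the log2 scale, from 0.31 on 4q to 2.57 on 21q. On 21q the 6 outer windows were higher and the 4 inner ones lower, a clean step that the map of windows shows. On 8p, the lowest end, 9 windows were lower and 1 was higher.

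**Figure D2:**
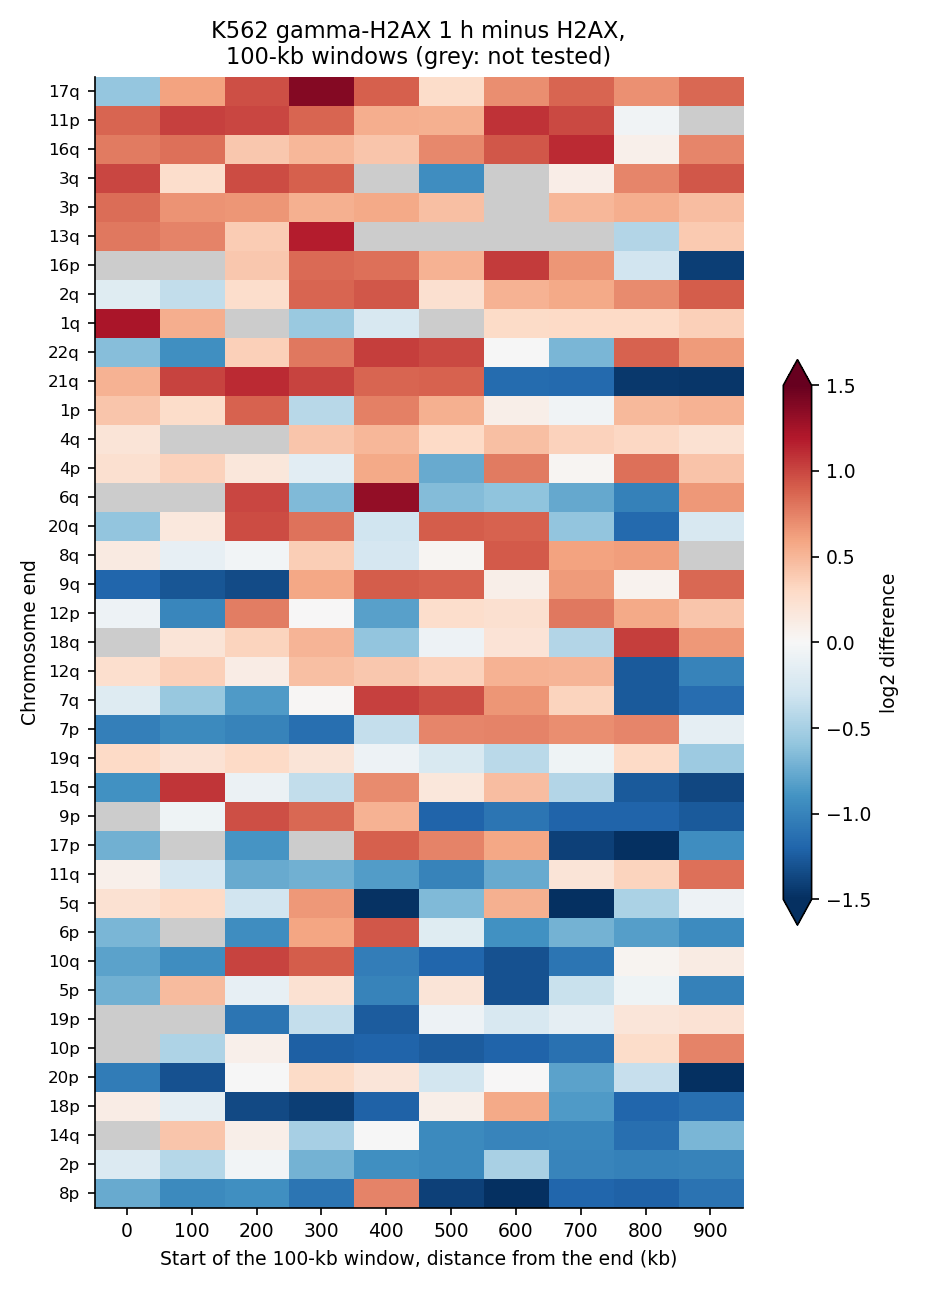
Log2 difference (1 h minus H2AX, K562) in each 100-kb window (columns, by distance from the end) of the 39 ends (rows, in order of the difference over the whole end). Colours run from -1.5 (blue) to 1.5 (red), and grey windows were not tested. Red and blue windows lie side by side in most rows, while 3p and 4q are evenly pale to mid red and 21q changes from red to blue between its outer and inner windows.

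The 5 highest windows were named by their log2 difference. The highest lay 300 to 400 kb from the end of 17q (chr17:80752001-80852000), with levels of 2.77 and 3.86 at 1 h against 1.31 and 1.16 in H2AX, a difference of 1.37 ± 0.16 (adjusted p = 0.000172). On 6q, the window 400 to 500 kb from the end (chr6:170615068-170715067) had 3.22 and 3.73 at 1 h against 1.41 and 1.31, a difference of 1.32 ± 0.11 (adjusted p = 0.000150). It stands in an end with 3 windows higher and 5 lower than H2AX. The outermost window of 1q (chr1:249125001-249225000) had 2.73 and 2.85 against 1.16 and 1.18, a difference of 1.22 ± 0.10. That of 13q 300 to 400 kb in (chr13:114769879-114869878) had 1.10 and 1.78 against 0.585 and 0.598, and that of 16q 700 to 800 kb in (chr16:89356001-89456000) had 2.41 and 3.10 against 1.24 and 1.22. All 5 were poor in H3K27me3, with levels between 0.0423 and 0.181.

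The 5 lowest windows were all rich in H3K27me3, with levels from 3.54 to 5.19. The lowest was the innermost window of 20p (chr20:900001-1000000), with 0.371 and 0.271 at 1 h against 1.28 and 1.15 in H2AX, a difference of -1.78 ± 0.14 (adjusted p = 0.000150). On 5q, a pair of windows 700 to 800 kb (chr5:179800001-179900000) and 400 to 500 kb (chr5:180100001-180200000) from the end differed by -1.65 ± 0.19 and -1.48 ± 0.12. The remaining members were on 8p, 600 to 700 kb in, at -1.54 ± 0.16, and on 17p (chr17:800001-900000), at -1.51 ± 0.12. In all 5 lowest windows both 1 h levels lay below 0.44, so the mark was depleted to less than the library's average there and not only relative to H2AX.

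Pooled over all ends, the excess at 1 h lay in the outer megabase, and by 100-kb steps it was not greatest in the outermost. The pooled log2 difference from H2AX was 0.12 in the outermost 100 kb, 0.34 between 300 and 500 kb, 0.28 between 600 and 700 kb and near 0 (-0.005) between 800 and 900 kb. From 1 to 2 Mb it was -0.02, and from 3 to 4 Mb -0.25. Within the outermost 100 kb it was uneven, at 0.29 in the outermost 10 kb (0.33 and 0.26 in replicates 1 and 2) and 0.10 from 10 to 100 kb. By replicate the pooled difference was 0.11 and 0.27 over the whole megabase, and -0.08 and 0.04 from 1 to 2 Mb. The number of 100-kb windows called higher was 8 of 32 tested in the outermost 100 kb and 21 of 38 between 300 and 400 kb. Coverage was poorest at the tip: 18.2% of the bins in the outermost 100 kb, and 39.6% of those in the outermost 10 kb, read 0 in every library, against 3.78% over the whole megabase. The part of coverage in the lower difference of the outermost 100 kb was not tested.

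**Figure D3:**
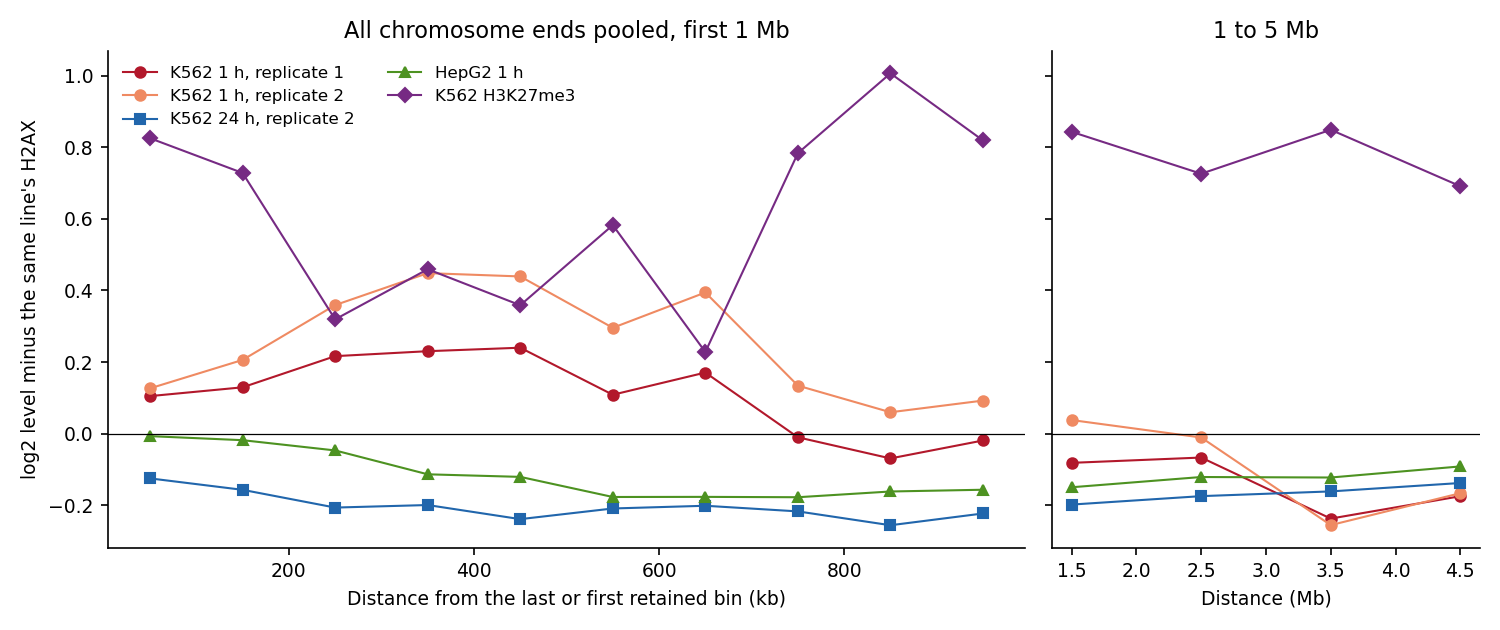
Pooled log2 difference from the same line's H2AX libraries against distance from the first or last retained bin, in 100-kb steps to 1 Mb (left) and 1-Mb steps to 5 Mb (right), all ends together. Both K562 1 h replicates (circles) lie above 0 to 700 kb and come down to near 0 by 800 kb, K562 24 h (squares) and HepG2 1 h (triangles) lie below 0 throughout, and H3K27me3 (diamonds) lies above 0 throughout.

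Each library was also set against the rest of the autosomes, as the mean log2 level of the ends minus that of the 2599 other segments. At 1 h the ends stood 0.08 and 0.22 above the rest in K562 replicates 1 and 2. In K562 H2AX they stood at -0.005 and -0.07, at 24 h in replicate 2 at -0.26, in HepG2 H2AX at -0.34 and -0.37 and in HepG2 at 1 h at -0.47. H3K27me3 had the greatest enrichment at the ends over the rest, 0.87, but against the neighbouring megabase (1 to 2 Mb in) it stood at -0.26. The K562 1 h libraries exceeded the K562 H2AX libraries by 0.19, higher in 2 of 2, with an exact two-sided permutation p of 0.333, the smallest that the 6 arrangements of 2 against 2 libraries allow. Set against the neighbouring megabase in place of the rest, the difference between 1 h and H2AX was 0.30, also with an exact permutation p of 0.333. The mean at 1 h was carried by strong bins: the median bin of the ends had levels of 0.801 and 0.744, against means of 1.08 and 1.20. With the median of bins, the median difference was -0.24 over all segments.

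By 24 h the excess was no longer seen. In replicate 2, 1 end was higher than H2AX (3p) and 15 were lower, against 22.7% higher and 20.7% lower over all segments, and 33 of 39 ends had a negative difference. The median was -0.25 over the ends and 0.05 over all segments. The low values were not particular to the ends: pooled over bins, the difference was -0.21 over the outer megabase and -0.20 from 1 to 2 Mb. These calls rest on 1 library at 24 h and on the spread of the other groups: none was called higher or lower without either K562 H2AX replicate, while 28 were lower without either 1 h replicate. Without either HepG2 H2AX replicate, 0 were higher and 4 lower. None was called with replicate 1 at 24 h included. The fit with a replicate block gave 0 higher and 4 lower.

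At 24 h, 3p differed from H2AX by 0.38 ± 0.13 (adjusted p = 0.0439), with a level of 1.08 against 0.775 and 0.863. The value turned to -0.35 with replicate 1 at 24 h in the fit. The call was also lost with the replicate block, with median-of-ratios scaling, with ends of 0.5 Mb, with the median of bins and without any 1 of the 4 H2AX libraries. After it in order came 4q at 0.31 ± 0.12 (adjusted p = 0.0676) and 2p at 0.17 ± 0.14 (adjusted p = 0.350), which did not pass. 4q is the arm that carries the DUX4 repeat array of facioscapulohumeral dystrophy, and like 3p it has few genes. At the low side were 16p at -0.45 ± 0.16 (adjusted p = 0.0504), 9q at -0.43 ± 0.13 (adjusted p = 0.0365) and 1p at -0.40 ± 0.13 (adjusted p = 0.0430), of which 16p just missed. Across 37 ends with enough promoters in the RefSeq table, the mean GC content of the promoters of the outermost 20 coding genes was related to the 24 h difference with a Pearson's r of -0.56 and Spearman's rho of -0.51, and to the 1 h difference with 0.07 and 0.11. For HepG2 at 1 h it was -0.53 and -0.49. Neighbouring genes of one arm share base composition, and the gene sets come from GRCh38.p14 and reach beyond the megabase on most arms, so these are descriptions.

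Between the times, 24 ends were higher at 1 h than at 24 h and 4 were lower (2p, 8p, 14q and 18p), against 21.3% and 30.4% of all segments. The median difference was 0.39 over the ends and -0.06 over all segments. The farthest were 11p at 1.11 ± 0.15 (adjusted p = 0.000971), 17q at 1.08 ± 0.14 (adjusted p = 0.000860) and 16q at 1.06 ± 0.13 (adjusted p = 0.000678). At the low side were 2p at -0.79 ± 0.14 (adjusted p = 0.00211), 8p at -0.76 ± 0.13 (adjusted p = 0.00198) and 14q at -0.39 ± 0.09 (adjusted p = 0.00815). The ends named as farthest from H2AX at 1 h, in both directions, lay closer to it at 24 h. These ends were picked by their 1 h difference, so a smaller distance in another library is partly built into the choice. Both distances also use the same K562 H2AX libraries. For 3p and 4q the times differed by 0.19 ± 0.13 (adjusted p = 0.253) and 0.04 ± 0.12 (adjusted p = 0.831), which did not pass. Without replicate 1 at 1 h, 8 ends were called lower in place of 4.

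HepG2 at 1 h did not show the K562 excess. By limma none of the 39 ends was called in either direction, as was none of the 2785 segments (0% higher and 0% lower), and 8 ends and 392 segments had an unadjusted p under 0.05. The median difference from HepG2 H2AX was -0.11 over the ends and 0.01 over all segments, and 32 of 39 ends were negative. Pooled over bins it was -0.12 over the outer megabase and -0.15 from 1 to 2 Mb, so the low values were not particular to the ends. The highest ends were 3p at 0.18 ± 0.13 (adjusted p = 0.482), 1q at 0.12 ± 0.10 (adjusted p = 0.532) and 4q at 0.12 ± 0.12 (adjusted p = 0.633). The lowest were 16p at -0.40 ± 0.16 (adjusted p = 0.330), 20q at -0.37 ± 0.13 (adjusted p = 0.315) and 17q at -0.35 ± 0.14 (adjusted p = 0.333). On 17q the HepG2 level was 0.827 at 1 h against 1.08 and 1.05 in H2AX, where K562 had its highest excess. With only the 2 HepG2 groups in the fit, 3 ends were called higher and 19 lower, and 17 were lower when either K562 1 h replicate was left out, so the count of 0 depends on the spread taken from the K562 libraries.

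The difference between the lines was tested directly, as the K562 difference from H2AX at 1 h minus that of HepG2. It was higher in K562 at 13 ends and lower at 4, with 15.1% and 18.7% over all segments. The median was 0.29 over the ends and 0.03 over all segments. Highest were 17q at 1.11 ± 0.18 (adjusted p = 0.00797), 16q at 1.02 ± 0.16 (adjusted p = 0.00797) and 11p at 1.01 ± 0.19 (adjusted p = 0.00960). Lowest were 2p at -0.69 ± 0.18 (adjusted p = 0.0203), 8p at -0.69 ± 0.17 (adjusted p = 0.0169) and 14q at -0.45 ± 0.12 (adjusted p = 0.0228). Without either K562 H2AX replicate none of the ends was called, nor was any with K562 24 h replicate 1 in the fit. Without replicate 1 or 2 at 1 h, 25 or 21 were higher. With the median of bins, 7 were higher and 8 lower.

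Each line against its own H2AX, K562 at 24 h (replicate 2) and HepG2 at 1 h put the ends in a like order, with a Pearson's r of 0.84 and a Spearman's rho of 0.85 over 39 ends. These 2 differences share no library. Ends of one genome share base composition and mappability, so the relation is given without a test. For K562 replicates 1 and 2 at 1 h against HepG2 at 1 h, r was -0.15 and -0.34. The ends 3p, 4q, 1q and 2p were the 4 highest in both K562 at 24 h and HepG2 at 1 h, and 16p was the lowest in both.

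**Figure D4:**
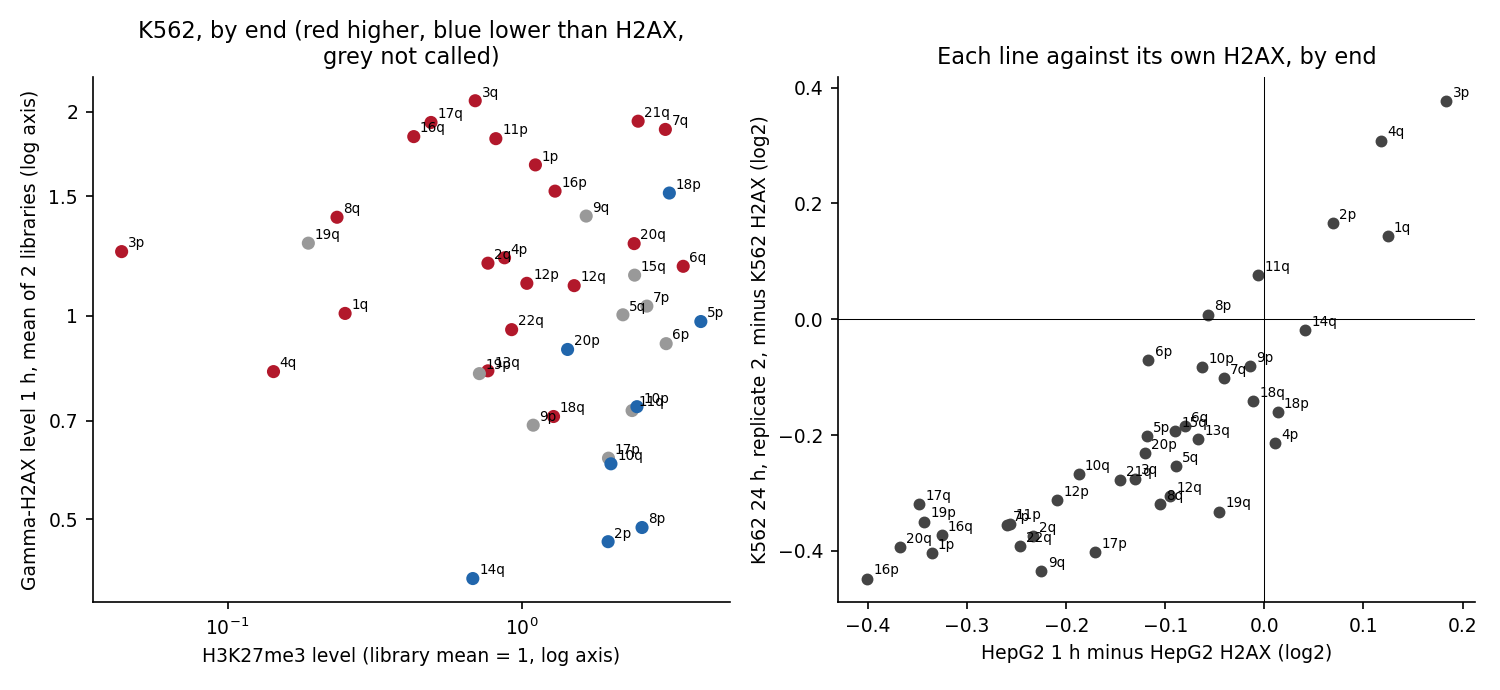
Left, mean gamma-H2AX level of the 2 K562 1 h libraries against the H3K27me3 level at each end, on log axes with the library mean at 1, coloured red where 1 h was called higher than H2AX, blue where lower and grey where not called. Right, K562 at 24 h (replicate 2) minus K562 H2AX against HepG2 at 1 h minus HepG2 H2AX, in log2. On the left the blue ends lie at an H3K27me3 level of 0.680 or more, and on the right the ends run from 16p at the lower left to 3p at the upper right.

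The ends were richer in H3K27me3 than the genome at large, as were the megabases next to them. The pooled log2 difference from H2AX was 0.63 over the outer megabase, 0.84 from 1 to 2 Mb and 0.85 from 3 to 4 Mb. H3K27me3 was above H2AX at 24 ends and below it at 9, against 32.2% and 53.5% of all segments, with a median of 0.51 over the ends and -0.39 over all segments. The highest were 6q at 1.84 ± 0.07 (adjusted p = 6.12e-08), 5p at 1.77 ± 0.08 (adjusted p = 1.03e-07) and 6p at 1.56 ± 0.12 (adjusted p = 3.36e-06). The lowest were 3p at -3.21 ± 0.13 (adjusted p = 6.76e-08), 19q, an end of zinc finger genes, at -2.42 ± 0.10 (adjusted p = 7.15e-08) and 8q at -2.06 ± 0.12 (adjusted p = 5.23e-07). H3K27me3 rests on 1 library, with its spread taken from the other groups. As with gamma-H2AX its signal was uneven within an end: with the median of bins 9 ends were higher and 26 lower.

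Among the 24 ends with more H3K27me3 than H2AX, 8 were higher and 8 lower in gamma-H2AX at 1 h, with a median log2 difference of -0.05. Of the 9 with less, 7 were higher and none lower, with a median of 0.43. Of the 6 ends in neither class, 6 were higher, with a median of 0.46. All 8 ends with a deficit of gamma-H2AX were thus among those with more H3K27me3, but 6q, 7q, 13q, 18q, 20q, 21q, 22q and 12q had more of both. These classes share the K562 H2AX libraries as control, so the same was asked with a separate H2AX library for each mark. Gamma-H2AX at 1 h was taken minus K562 H2AX replicate 1, and H3K27me3 minus K562 H2AX replicate 2, on the log2 scale. Across the 39 ends these differences had a Pearson's r of -0.50 and -0.57 for 1 h replicates 1 and 2. Spearman's rho was -0.50 and -0.61.

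Inside single ends the marks were opposed as well. In 10-kb windows, between 52 and 100 per end, Spearman's rho was taken between the same differences, with separate H2AX replicates as controls. It was negative in 37 of 39 ends in 1 h replicate 1 and in 38 in replicate 2, with medians of -0.64 and -0.69. It was strongest on 20p, at -0.86 and -0.87. The exceptions were 3p, with 0.28 and 0.24, and 4q, with 0.13 and -0.18, the ends in which H3K27me3 was nearly absent (levels of 0.0437 and 0.143) and gamma-H2AX varied least. Windows of one library pair share depth and mappability, and these values are descriptions. No such values were computed for megabases elsewhere, so the opposition is not read as particular to the ends.

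The chromatin background itself differed between the lines at many ends. K562 H2AX exceeded HepG2 H2AX at 19 ends and fell below it at 8, against 32.2% and 38.3% of all segments. Highest were 7q at 1.11 ± 0.05 (adjusted p = 5.92e-06), 18p at 1.10 ± 0.06 (adjusted p = 7.84e-06) and 1p at 1.01 ± 0.11 (adjusted p = 9.12e-05). On 7q the levels were 1.66 and 1.64 in K562 against 0.737 and 0.742 in HepG2. Lowest were 2p at -0.63 ± 0.11 (adjusted p = 0.00122), 20p at -0.53 ± 0.06 (adjusted p = 9.14e-05) and 2q at -0.46 ± 0.09 (adjusted p = 0.00199). Copy number and chromatin signal cannot be told apart in these libraries, and each comparison within a line is set against that line's own H2AX. Leaving out a H2AX replicate of either line left 4 or 5 ends called lower, and 2 were left with K562 24 h replicate 1 in the fit.

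The deposited peak lists were set beside these levels. A peak was counted in an end when its centre lay within it. The K562 1 h lists had 687 (replicate 1) and 1153 (replicate 2) peaks in the ends. This was 18.5 and 31.0 peaks per Mb, against 14.9 and 16.3 per Mb in the rest of the autosomes and X, ratios of 1.24 and 1.91. With only peaks of q under 0.05 the ratios were 0.97 (44 peaks in the ends) and 2.23 (198 peaks), so the lists of the 2 replicates did not give the same answer under the stricter threshold. Replicate 1 shared 63.8% of its peaks in the ends with replicate 2 (59.4% in the rest). Replicate 2 shared 35.3% of its own with replicate 1 (49.7% in the rest). No peak of the K562 24 h lists (8 and 13 peaks) or of the HepG2 list (156 peaks on autosomes and X) lay in an end. The HepG2 list holds 1 peak centred in a retained bin, so it says little about the ends. The K562 24 h lists are also too short to say much, since the ends hold 37.2 Mb of bins against 2761 Mb in the rest.

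**Figure D5:**
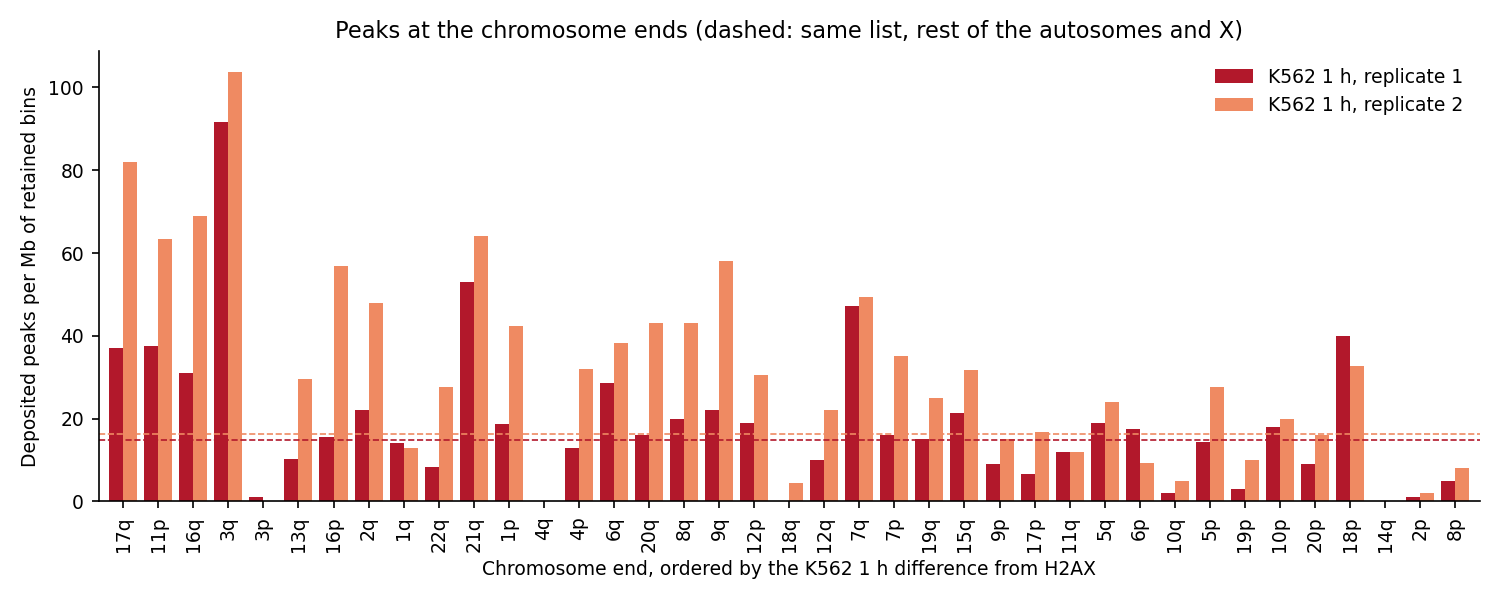
Deposited peaks per Mb of retained bins at each end, for the K562 1 h replicates, with ends in order of their 1 h difference from H2AX. Dashed lines give the density of the same list over the rest of the autosomes and X (14.9 and 16.3 per Mb). 3q has the most peaks in both lists, and 4q and 14q have none in either.

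By end, 3q had the most peaks (77 and 87), then 21q (53 and 64 in replicates 1 and 2), 17q (37 and 82) and 7q (46 and 48). On 18p, where gamma-H2AX was below H2AX, there were 39 and 32. The 18p levels of gamma-H2AX were nevertheless above the library mean, at 1.59 and 1.44. The end of 3p, with one of the 5 highest differences, had 1 and 0 peaks, although all 9 of its tested windows were higher than H2AX. 4q had none in either list, with 4 of its 8 tested windows higher. The end of 14q had none either. The caller's fold is the authors' value. In replicate 1 the strongest 5 peaks had folds from 3.10, on 7p (chr7:874375-875173), through 3.07 on 1q (chr1:249193050-249193386), 2.96 on 12q and 2.93 on 3q, to 2.92 on 8q. In replicate 2 the folds ran from 4.94 on 10q (chr10:135218635-135219274, −log10 q of 6.54) through 3.79 on 10p (chr10:895603-896660), 3.54 on 19p (chr19:314118-315338) and 3.39 on 5q to 3.34 on 19p. No end appears in both sets of 5. The median fold was 1.77 and 1.75 in the ends and 1.78 and 1.76 in the rest, so the folds were alike in both places.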

How the data were processed

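The deposited signal tracks hold coverage, the mean read depth per base in 1-kb bins on hg19, and were used as the authors made them, without rescaling. Per the submitters' processing notes the tools were BWA 0.7.12, MACS2 and SAMtools, and what each did is not stated there. The deposited peak lists hold each peak's fold (a ratio), score, and p and q values as −log10 (p-value, q-value), as the authors' caller wrote them. The score was not used. The K562 1 h lists have the broad layout and the others the narrow one. What the fold is relative to was not stated in them.

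Depth per base was averaged over segments of 1 Mb and windows of 100 kb anchored on the first and last retained bins, divided by the library's mean over all bins without Y, and tested as log2(level + 0.05). Regions needed at least 50% of their bins and a mean H2AX level of at least 0.25 in each line. The test was limma 3.58.1 with a trend (R 4.3.3), in 1 fit of 9 libraries with 6 group means and 3 residual degrees of freedom. Benjamini-Hochberg adjustment ran over all segments or windows, and an adjusted p under 0.05 was called. Groups with 1 library take their spread from the 3 groups with 2. K562 24 h replicate 1 was left out because of its zeros. On data simulated for the 1-Mb comparison of K562 at 1 h with H2AX (2785 segments, 200 changed), 84% of changes of 0.5 on the log2 scale and 99.5% of changes of 1 were recovered, and for HepG2 75% and 96%. For 100-kb windows (27593, of which 200 changed) the K562 comparison recovered 0% and 69.5%. Few regions were changed in these simulations, whereas in the data 33.4% of all windows were called higher and 37.8% lower. The shares recovered therefore do not carry over to the real fit. On 19q, 2 windows were called higher although the largest difference there was 0.30. No count model was used, since the values are depths.

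The ends, the tests, the rules for what is named (the 5 highest and 5 lowest ends at 1 h, 3 and 3 in other comparisons, 5 and 5 called windows, and the 5 peaks of highest fold per list) and the gene sets were chosen with earlier results of these data known. Gene names and promoters were matched from RefSeq on GRCh38.p14 by order along the arm. A planned test of genes on hg19 was not run, hg19 sequence was not used here, and 1 stretch of chromosome 16 is not reported here. Python 3.11.15, pandas 2.3.3 and matplotlib 3.10.9 were used. Replicate numbers were not taken to pair the libraries: deviations of same-numbered libraries correlated at 0.17, -0.04 and 0.72 in the 3 pairs of groups (K562 1 h with K562 H2AX, K562 1 h with HepG2 H2AX, and the H2AX libraries of both lines), and the labels name no shared batch.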

Additional observations from a re-analysis of the deposited data

Results flagged for a closer look

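The difference between K562 and HepG2 in their 1 h response passed the test of the difference itself at each of the 6 ends named for it. On the log2 scale it was 1.11 for 17q, 1.02 for 16q and 1.01 for 11p, where K562 lay above its H2AX and HepG2 below. It was -0.69 for 2p, -0.69 for 8p and -0.45 for 14q, where K562 lay below its H2AX and HepG2 within 0.07 of its own. Every one of these 6 calls was lost without either K562 H2AX replicate, and with K562 24 h replicate 1 in the fit. For 14q the value turned to 0.020 with ends of 2 Mb, and the call was also lost without either HepG2 H2AX replicate and with ends of 0.5 Mb. HepG2 gave 1 gamma-H2AX library here, and line and library cannot be told apart.

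The difference between 1 h and 24 h in K562 passed at the same 6 ends. It was 1.11 for 11p, 1.08 for 17q and 1.06 for 16q, and -0.79 for 2p, -0.76 for 8p and -0.39 for 14q. The 24 h value is that of replicate 2. This difference and that between the lines both contain the K562 1 h libraries, so the shared 6 ends are no independent support. With ends of 2 Mb the 14q difference was 0.12, and with ends of 0.5 Mb it was 0.039.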

How the results depend on the processing

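Counts are of the 39 ends, as higher or lower than H2AX unless said otherwise. With K562 24 h replicate 1 in the fit, 0 ends were called higher and 0 lower at 1 h, 0 and 0 at 24 h, and 0 and 0 between the lines, K562 H2AX was below HepG2 H2AX at 2 ends, 7 windows of 100 kb were higher and 57 lower at 1 h, the 24 h median was -0.33 and 3p at 24 h was -0.35. Using the median of bins gave 7 higher and 19 lower at 1 h (median -0.19), 0 and 0 at 24 h (median -0.32), 12 higher and 10 lower between 1 h and 24 h, 9 higher and 26 lower for H3K27me3 (median -1.596), 5 ends lower in K562 H2AX than in HepG2 H2AX, 7 higher and 8 lower between the lines, a HepG2 median of -0.18 and -0.10 for 1q in HepG2. A mean and a median over bins measure different things where strong bins are few. Ends of 0.5 Mb (38 tested) gave 0 higher and 4 lower at 24 h, 7 lower between the times, 17 lower and a median of 0.64 for H3K27me3, a HepG2 median of -0.081, and for 14q 0.034 at 1 h and 0.039 between the times. Ends of 2 Mb gave 12 higher at 1 h (median 0.11), 2 higher at 24 h, 8 lower between the times, medians of -0.14 for HepG2 and 0.92 for H3K27me3, and for 14q 0.12 between the times and 0.020 between the lines. With only the groups compared, 2 ends were higher and 26 lower at 24 h, 2 were lower between the times, and 3 were higher and 19 lower in HepG2.

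Median-of-ratios scaling gave 0 higher at 24 h, a HepG2 median of -0.088 and an H3K27me3 median of 0.89. It moved the H3K27me3 median of all segments from -0.39 to -0.02, and the shares of all segments called from 32.2% and 53.5% to 44.3% and 45.2% for H3K27me3 and from 22.7% and 20.7% to 16.4% and 23.6% at 24 h. A pseudocount of 0.2 gave a HepG2 median of -0.084. The fit with a replicate block gave 19 higher and 8 lower at 1 h and 0 higher and 4 lower at 24 h. The replicate number could not be shown to pair the libraries. Leaving out 1 library at a time gave these ranges: at 1 h 11 to 24 higher, 5 to 10 lower and medians of 0.14 to 0.28; at 24 h 0 to 3 higher and 0 to 28 lower; between the times 3 to 8 lower; in HepG2 0 to 17 lower; in K562 against HepG2 H2AX 4 to 10 lower; between the lines 0 to 25 higher and 0 to 8 lower. The cause was not tested where none is given. The excess of the ends over the rest at 1 h, 0.19, was positive under all 12 alternatives run for it but moved by over 1.5 times under 4: 0.064 (ends of 2 Mb), 0.065 (median of bins), 0.12 (without 1 h replicate 2) and 0.30 (neighbouring megabase). The peak density ratio of 1 h replicate 1 went from 1.24 to 0.97 with peaks of q under 0.05. For the 10 ends named at 1 h, 146 of 160 values kept direction and call, 13 lost the call and 1 turned. The HepG2 1 h, K562 24 h and H3K27me3 groups have 1 library each in the fit. How far depth limits these values was not tested.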

Other observations

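In replicate 1 of K562 at 24 h, which entered no test above, the levels were below both H2AX libraries at the 5 ends named as highest at 1 h, and above both at 3 of the 5 named as lowest (8p, 2p and 14q). On 18p and 20p they were below H2AX, as at 1 h. They were 0.355 on 17q, 0.319 on 11p, 0.322 on 16q, 0.407 on 3q and 0.361 on 3p, and 1.34 on 8p, 1.42 on 2p, 0.824 on 14q, 1.42 on 18p and 0.990 on 20p. The track of this library read 0 in 98.0% of the subtelomeric bins with a 1 h level above 1. These levels are therefore not independent of the 1 h libraries. The ends of this library stood at -0.44 against the rest of the autosomes on the log2 scale, and 46.4% of their bins read 0, against 35.6% of the other bins. In the other gamma-H2AX and H2AX libraries between 4.71% and 8.24% of the subtelomeric bins read 0, against 1.78% to 3.40% elsewhere.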
